A study of Mus musculus with 6 samples.

Results

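Gdf3 and 9 further genes of the transforming growth factor beta (TGF-beta) and bone morphogenetic protein (BMP) pathway were followed in Kupffer cells, which are macrophages of the liver sinusoids. The 10 genes were taken from a fixed list of Ensembl identifiers, and all 10 were among the 27835 features of the deposited array table, each with 1 row. Gdf3 was chosen by its measured rise in monocyte-derived over embryonic Kupffer cells on these arrays, among the 2 largest of the table. The 9 others were listed under the name of the pathway, though with earlier results of these data known. They were the ligand genes Gdf15, Tgfb1 and Inhba, the receptor genes Tgfbr1, Tgfbr2 and Acvrl1, and the SMAD genes Smad4, Smad6 and Smad7.

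Affymetrix Mouse Gene 2.0 ST arrays, which read biotin-labelled RNA in 1 colour, were hybridised with 6 samples from 3 mice. From the liver of each mouse came a pair of samples, called mKC for monocyte-derived and eKC for embryonic Kupffer cells. All mice had the C57Bl/6 background and the genotype CX3CR1-CreERT+/+ Stopfl/fl tdTomato, and all had been given the treatment abbreviated sRBC. The labels state no ages, and without untreated mice the values do not measure a response to the treatment. Both populations were sorted from liver as CD45+, CD11b- and F4/80+ cells. The mKC gate added GFP+ and tdTomato-, and the eKC gate GFP- and tdTomato+. Reporter status alone assigned the origin, so origin and any other property that differs between the gates cannot be told apart. Each sample held 50000 sorted cells, and 2 ng of total RNA entered the amplification. No row other than those of the 10 genes could be given a symbol, so the sorted populations were not checked against Kupffer cell markers or markers of other cell types.

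In this pathway a dimeric ligand brings together type I and type II receptor kinases on the cell surface. The activated type I receptor phosphorylates receptor SMAD proteins, which join SMAD4 and enter the nucleus to regulate transcription. The inhibitory SMADs, SMAD6 and SMAD7, are themselves induced by the signal and limit it. In the mouse liver, signalling through this pathway is known to help macrophages that settle in the sinusoid acquire and keep Kupffer cell identity.

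Gdf3 (ENSMUSG00000030117) was high in all mKC samples and low in all eKC samples. It encodes a secreted ligand studied mainly in pluripotent cells and the early embryo, where it can signal like Nodal and can inhibit BMPs, and it is also made by some tissue macrophages of the mouse. Its log2 intensity was 8.95, 8.73 and 8.95 in the mKC of animals 1, 2 and 3, and 4.59, 5.48 and 4.67 in the eKC of the same animals. The lowest mKC value was above the highest eKC value by more than the whole range within either group. The group levels were 8.88 ± 0.127 in mKC and 4.91 ± 0.489 in eKC (log2, SD, n = 3). Within animals the difference was 4.37, 3.26 and 4.28, with a mean of 3.97 ± 0.617 (log2, SD of the 3 animals), which is a 15.6-fold higher intensity in mKC. In single animals this was 20.6-fold, 9.56-fold and 19.4-fold. These values chose the gene, so they are given as a description and no test is attached to them. By mean difference Gdf3 ranked 2 of 27835 features, after a rise of 3.99 and before one of 3.44, the first outside the 2 largest.

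**Figure D1:**
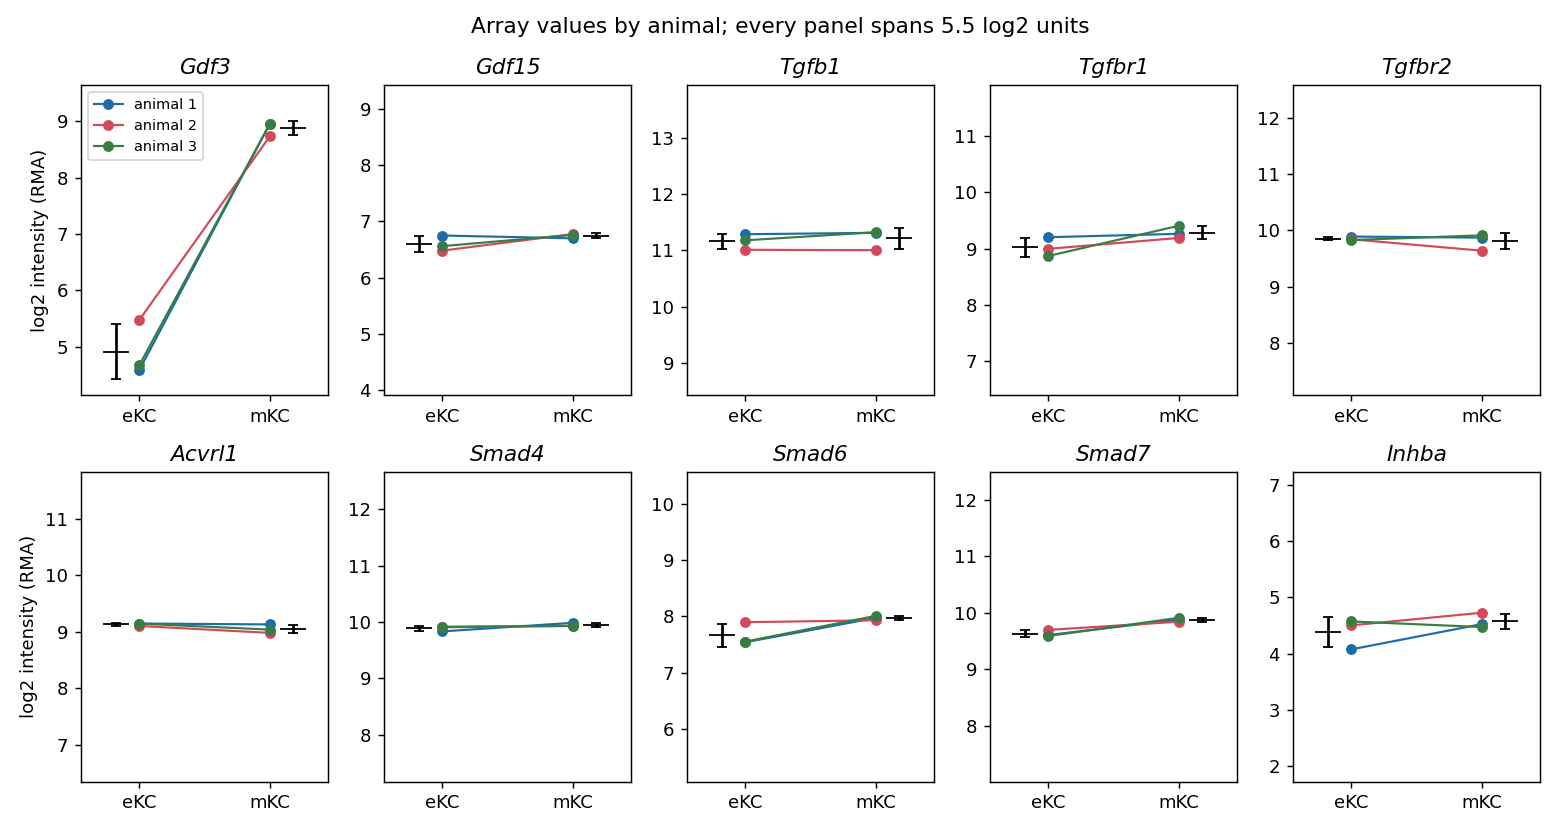
Log2 intensity (RMA) of the 10 genes in eKC and mKC, with 1 coloured line per animal and the group mean with its SD (n = 3) beside the points; every panel spans 5.5 log2 units. Gdf3 climbs from 4.91 to 8.88, whereas the lines of the 9 other genes are close to flat on this scale.

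The smaller rise of Gdf3 in animal 2 came from both of its arrays, and more from the eKC array. Its eKC value there was the highest of the 3, at 5.48 against 4.59 and 4.67. Its mKC value was the lowest, at 8.73 against 8.95 and 8.95. On principal components of the whole table these arrays also stood apart: on the second principal component (17.2% of the variance) the eKC array of animal 2 scored 25.6, against -12.9 and -12.4 for the other eKC arrays. On the third component (15.6%) its mKC array scored -24.4, against 10.8 and 13.2. Of all features, 506 differed between mKC and eKC at an adjusted p under 0.05 (limma). Among these, the eKC array of animal 2 was the eKC array nearest to mKC in 38.5%, and those of animals 1 and 3 in 31.8% and 29.6%, where over all features the shares were 35.8%, 30% and 34.1% in the same order. Its mKC array was the one nearest to eKC in 42.7%, against 25.3% and 32.0%, whereas over all features the shares were 35.3% for animal 2, 29.5% for animal 1 and 35.2% for animal 3. The part of these arrays in the spread of Gdf3 was not tested. Without animal 2 the mean rise was 4.32.

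The low side of the Gdf3 comparison was dim. Its mean eKC level exceeded that of 43.5% of features and lay below the median of all feature means, 5.24, while its mKC level exceeded that of 87.8% of features. The table holds no detection call, so Gdf3 was not shown to be present or absent in eKC. In such bulk samples, fewer cells that make a transcript and less of it per cell cannot be told apart.

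Of the 9 other genes, 0 passed the threshold of an adjusted p under 0.05 (limma, Benjamini-Hochberg over all 27835 features), and 2 had an unadjusted p under 0.05. Of all features 1.82% passed, and 11.7% had an unadjusted p under 0.05. The differences of the 9 genes ran from -0.082 to 0.31 on the log2 scale, with 7 means higher in mKC and 2 lower. Their median was 0.15, against -0.0079 over all features, and the median without sign was 0.15 against 0.097. The 95% intervals of the differences, which are not adjusted for the number of genes, lay within -1 and 1 for all 9. Each thus excluded a 2-fold change of array intensity in either direction. For 7 of the 9 the intervals lay within -0.5 and 0.5. Inhba was dim in both populations, where RMA compresses differences, so its interval does not bound the change of its transcript. Smaller differences were at the limit of this threshold with 3 animals: the smallest difference called anywhere in the table was 0.531 without its sign. In simulated data the fit recovered 76.7% of changes of 1 and 2.1% of changes of 0.5. Those data had 200 changed features per run and variances drawn from the fitted model. Recovery depends on how many features change, so these rates need not hold for the real table.

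**Figure D2:**
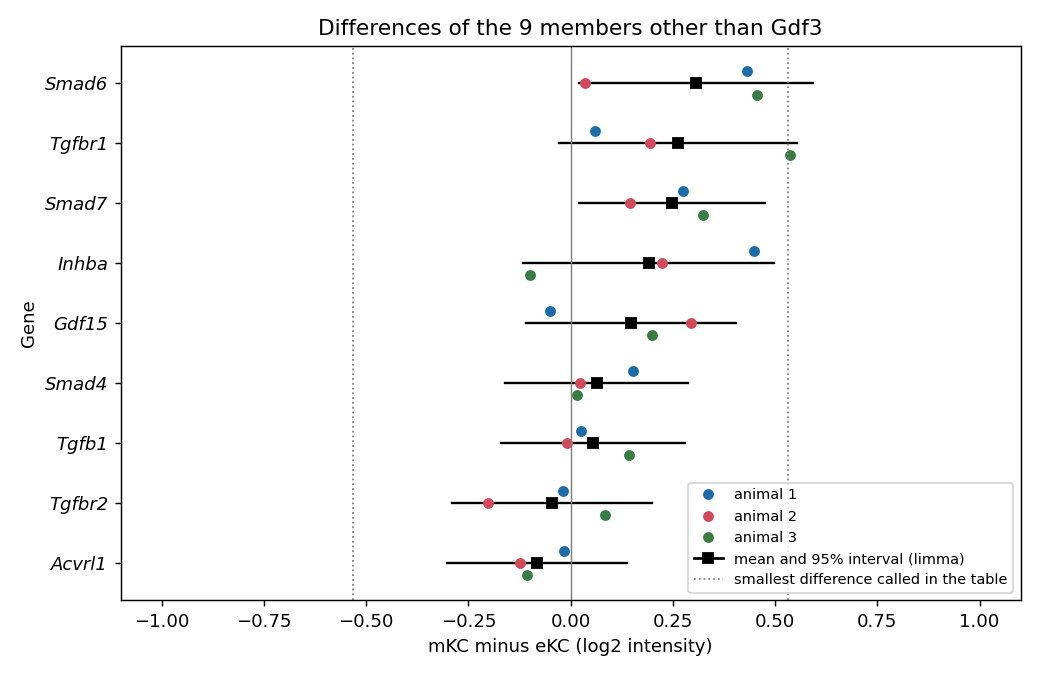
Difference between mKC and eKC (log2 intensity, horizontal axis) of the 9 genes other than Gdf3, with 1 coloured point per animal, the mean as a square and limma's 95% interval as a line; dotted lines mark the smallest difference called in the table, 0.531. The intervals of Smad6 and Smad7 lie just above 0, those of the other 7 genes include it, and no mean reaches a dotted line.

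The other ligand genes showed small differences next to that of Gdf3. Tgfb1 (ENSMUSG00000002603) encodes the cytokine TGF-beta 1, which macrophages secrete in a latent form. It read 11.31, 11.00 and 11.32 in the mKC of animals 1, 2 and 3, and 11.29, 11.01 and 11.18 in their eKC. Animal 2 had the lowest value in both populations, the groups overlapped, and the difference of 0.054 ± 0.093 (log2, limma SE, n = 3) did not pass the threshold (limma, adjusted p = 0.896). It was 0.084 without animal 2 and 0.0086 without animal 3. The 95% interval of the difference over all animals, from -0.17 to 0.28, corresponds to a ratio of mKC to eKC between 0.888 and 1.21.

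Gdf15 (ENSMUSG00000038508) encodes a stress-induced ligand that circulates and signals through the receptor GFRAL in the brainstem. GFRAL is not among the receptor genes followed here. Its values were 6.70, 6.77 and 6.76 in mKC and 6.75, 6.48 and 6.56 in eKC, in the order of the animals. It was higher in mKC in animals 2 and 3 and lower in animal 1, whose eKC value lay among the mKC values. The difference was 0.15 ± 0.11 (log2, SE; limma, adjusted p = 0.697), with an interval from -0.11 to 0.41. It was 0.25 without animal 1 and 0.075 without animal 2.

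Inhba (ENSMUSG00000041324) encodes the subunit that pairs with itself to form activin A, a ligand of the SMAD2 and SMAD3 branch. It was dim in both populations, with 4.52, 4.73 and 4.47 in mKC and 4.08, 4.50 and 4.57 in eKC. The differences within animals were 0.45, 0.22 and -0.10, so their sign was not shared by the 3 animals. The mean of 0.19 ± 0.13 did not pass the threshold (limma, adjusted p = 0.664), and it was 0.062 without animal 1 and 0.34 without animal 3. Both group levels were below the median of all feature means, and it was not shown that the gene was present in either population.

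None of the 3 receptor genes passed the threshold. Tgfbr2 (ENSMUSG00000032440) encodes the type II receptor that binds TGF-beta and activates the type I receptor encoded by Tgfbr1. Tgfbr2 was at 9.87, 9.64 and 9.91 in mKC and 9.89, 9.84 and 9.83 in eKC. The eKC values lay between the lowest and the highest mKC value, and the difference was -0.046 ± 0.10 (log2, SE; limma, adjusted p = 0.921). Its sign depended on animal 2, since it was 0.032 without that animal.

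Tgfbr1 (ENSMUSG00000007613) was at 9.26, 9.19 and 9.41 in mKC and 9.20, 8.998 and 8.87 in eKC. It was higher in mKC in 3 of 3 animals, by 0.060, 0.19 and 0.54, although the lowest mKC value lay just under the highest eKC value. The mean difference of 0.26 ± 0.12 did not pass the threshold (limma, adjusted p = 0.478), and its interval reached from -0.028 to 0.55. Without animal 3, in which the difference was largest, it was 0.13.

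Acvrl1 (ENSMUSG00000000530) encodes ALK1, the type I receptor for BMP9 and BMP10, which is prominent in endothelium and is also used by Kupffer cells of the mouse. Its values were 9.13, 8.98 and 9.04 in mKC and 9.15, 9.10 and 9.15 in eKC. It was the only one of the 9 genes that was lower in mKC in each animal, and the values of the groups overlapped. The difference was -0.082 ± 0.091 (log2, SE; limma, adjusted p = 0.825).

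Among the SMAD genes, both inhibitory members read slightly higher in mKC, by amounts that did not pass the threshold over the whole table. Smad7 (ENSMUSG00000025880) encodes an inhibitor that blocks TGF-beta and BMP type I receptors. It was at 9.88, 9.84 and 9.91 in mKC and 9.61, 9.70 and 9.59 in eKC, so every mKC value was above every eKC value. The difference was 0.25 ± 0.094 (log2, SE), a 1.19-fold higher intensity, with an interval from 0.020 to 0.48 (limma, unadjusted p = 0.0375, adjusted p = 0.383). It was 0.27, 0.14 and 0.32 in animals 1, 2 and 3.

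Smad6 (ENSMUSG00000036867) encodes an inhibitor that acts mainly on BMP signalling. Its values were 7.97, 7.93 and 8.01 in mKC and 7.54, 7.90 and 7.55 in eKC. The groups did not overlap, but the eKC value of animal 2 almost reached the mKC values. The highest eKC value of Gdf3 was on the same array. The difference was 0.43 and 0.46 in animals 1 and 3 and 0.035 in animal 2, with a mean of 0.31 ± 0.12 (limma, unadjusted p = 0.0389, adjusted p = 0.389). Without animal 2 it was 0.44, still short of the threshold (limma, adjusted p = 0.201).

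Smad4 (ENSMUSG00000024515) encodes the partner shared by the TGF-beta and BMP branches. It was at 9.98, 9.93 and 9.93 in mKC and 9.83, 9.91 and 9.91 in eKC. Its groups also did not overlap, with a lowest mKC value of 9.928 and a highest eKC value of 9.914, and the difference was 0.063 ± 0.092 (log2, SE; limma, adjusted p = 0.873), or 0.019 without animal 1. Groups thus did not overlap for 3 of the 9 genes, namely Smad4, Smad6 and Smad7, all higher in mKC. Over all features the share was 17.7%, and 8.91% with mKC as the higher group. The sign was the same in all animals for 5 of the 9, 4 of them higher in mKC and 1 lower, against 33% of all features, with 16.1% higher and 16.9% lower.

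**Figure D3:**
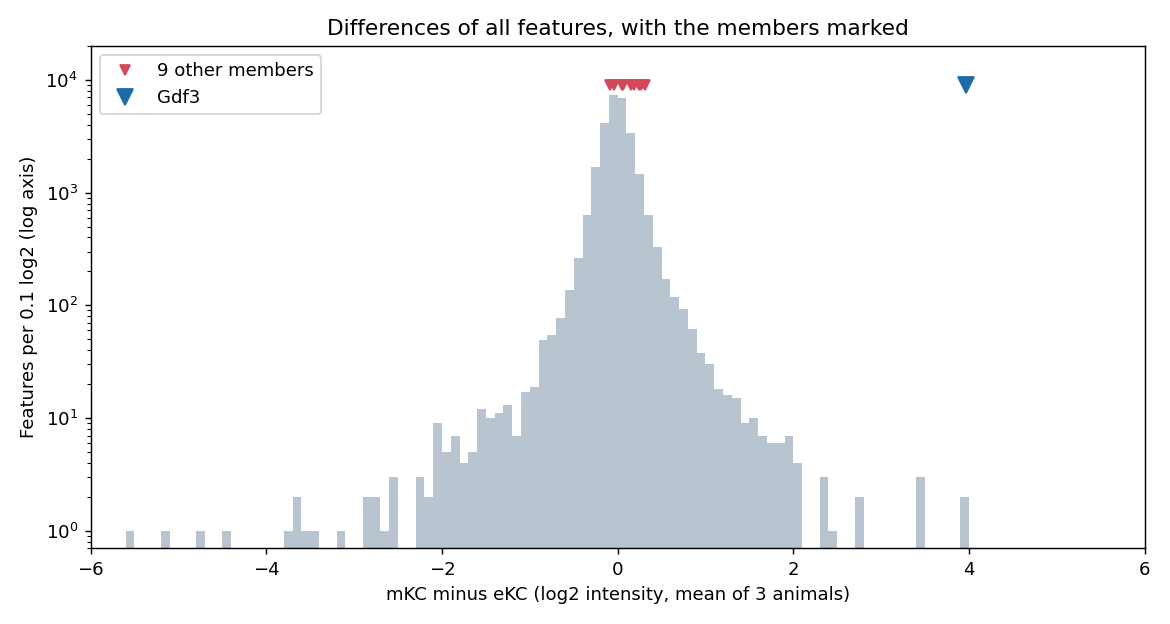
Number of features (log axis) by their mean difference between mKC and eKC in bins of 0.1 log2, with Gdf3 and the 9 other genes marked by triangles. The 9 genes lie between -0.082 and 0.31, inside the bulk of the 27835 features, of which 5% lie below -0.297 and 5% above 0.324, and Gdf3 stands at 3.97.

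The likeness of other features to Gdf3 over the 6 arrays was measured as the Euclidean distance between log2 profiles, each centred on its own mean over the 6 arrays, and it mostly reflects the shared difference between the populations. The nearest feature, ENSMUSG00000049103, lay at a distance of 0.774, with differences of 3.63, 2.99 and 3.69 in animals 1, 2 and 3. ENSMUSG00000052336 followed at 0.924, with 3.66, 3.03 and 3.60. Both were picked for their likeness to the profile of Gdf3, so their smallest rise in animal 2 was favoured by the choice and is no separate evidence. The third nearest, which had the larger mean rise of 3.99, had its smallest rise in animal 3. The 5 nearest features lay between 0.774 and 1.63, and none of the 9 other genes was among them, since a gene with a small difference must lie far from Gdf3 by this measure. When likeness was measured by Pearson correlation in place of distance, 1 of the 5 leading features was the same.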

How the data were processed

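The deposited table held log2 intensities, made by the authors with RMA per the submitters' processing notes. RMA is a method that corrects background, applies quantile normalization and summarises each gene's probes, and it compresses differences between dim values. The log base was taken as 2 from the range, 2.09 to 14.2; for the software version and the probe definition, nothing is given in the sources used here. Array medians were 5.21 to 5.28. Identifiers were paired with symbols only for the 10 members, by the list that defined them. The reference table (49997 genes, GRCm38.p6) held 0 Ensembl identifiers, so the 106 other pathway genes and the marker lists were not analysed here. No coordinates or sequences are given.

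All features were fitted as mKC minus eKC with limma 3.58.1 in R 4.3.3 (lmFit, eBayes, two-sided), with animal as a block because both populations came from the same mice. Deviations of the paired arrays correlated at -0.032, 0.026 and -0.019. The fit had 2 residual degrees of freedom plus 4.21 from the prior. It was tested on simulated data, 5 runs with 200 changed features of 27835, in which 6.34% of calls were false. The simulated noise was normal, with variances drawn from the fitted model, so this share need not hold for the real table.

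Every member was to be named, with the 5 features most like Gdf3, of which 2 are given by identifier; the rule's other genes had no symbols. The members and lists were chosen with earlier results of these data known. Alternatives covered the block, left-out animals, normalization, dim features, variance model, array weights and threshold.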

Additional observations from a re-analysis of the deposited data

How the results depend on the processing

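The rise of Gdf3 stayed between 3.77 and 4.32 under all 11 alternatives that give it a value. It was 3.97 without the replicate block, that is without pairing by animal. In this balanced design the mean difference cannot change with the block, the variance model or the dim features left out. Those alternatives therefore do not test the rise, and only left-out animals, normalization and array weights could move it. These too reuse the arrays whose difference chose the gene, so the range is a description and no separate support. Its ends, 3.77 without animal 1 and 4.32 without animal 2, follow from the differences of the remaining animals. Of the 9 other genes, 0 passed the threshold under any of the 12 alternatives (limma), with adjusted p-values from 0.165 to 0.994. In 106 of 107 refits of a single gene the direction was kept, several of which leave the difference itself unchanged. The exception was Tgfbr2, at -0.046, which ranged from -0.11 to 0.032 with 1 animal left out. Leaving out the lowest 50% of features removed Inhba from the test. Leaving out 1 animal gave 171 to 369 calls in the whole table in place of 506. Counts over the wider pathway list were not run, since its genes had no symbols. The number of animals limits the precision.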
